A study of Mus musculus with 7 samples.

Results

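The enzymes that break down the branched-chain amino acids leucine, isoleucine and valine were examined in neonatal brown fat that lacked glycerol kinase. The 10 genes were taken by name as a list of the main steps of the pathway: Bcat2, Bckdha, Bckdhb, Dbt, Bckdk, Ppm1k, Ivd, Acadsb, Hibadh and Aldh6a1. They were represented by 14 probe sets, groups of short DNA probes that together read out a transcript, among 45037 probe sets and 18193 named genes on the array. Of these genes 6 had 1 probe set and 4 (Bckdk, Ppm1k, Ivd and Hibadh) had 2, and all 14 probe sets passed the filter on dim signal.

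Total RNA of whole brown fat had been hybridised, 1 sample per array, from 4 knockout (KO) samples, replicates 1 to 4, and 3 wild-type (WT) samples, replicates 1, 3 and 4. The KO mice carried a knockout of Gyk, the glycerol kinase gene. All 7 samples came from male C57BL/6J mice aged 3 days, and the WT samples were the controls. Separate animals are not stated for the replicates, and the p-values then cover only the spread among these samples, which may be technical. In whole tissue fewer cells of a type and less RNA per cell cannot be told apart.

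Array medians lay between 131.2 and 153.7 signal units. The targeted gene was paired with 0 probe sets in the probe table, so its level is not analysed here and the genotypes rest on the labels. The array labelled KO replicate 2 lay apart from the other KO arrays: its score on the first principal component was -13.8, with the other KO arrays at 33.4 to 35.7 and the WT arrays at -33.3 to -23, and WT replicate 1 was the array it correlated with best (0.975). It also gave an Xist signal of 2757 with a probe set that read at most 273 elsewhere, although the labels call every sample male and Xist RNA is made from an inactive X chromosome. Results are therefore given on all 7 arrays and on the 6 arrays that remain when it is left out. Since this array was set apart partly because it lay near WT, leaving it out by itself favours larger differences between the groups. Passing on the 6 arrays is to be read with that limit. Brown adipocyte markers were bright in both groups, with Ucp1 between 26887 and 37577 in KO and between 29264 and 33706 in WT.

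Branched-chain amino acids are broken down in mitochondria. The aminotransferase encoded by Bcat2 first moves the amino group of all 3 amino acids to 2-oxoglutarate, which gives glutamate and branched-chain keto acids. The branched-chain keto acid dehydrogenase (BCKDH) complex then carries out the irreversible, committed step, and it is switched off when the kinase encoded by Bckdk phosphorylates its alpha subunit and switched on again by the phosphatase encoded by Ppm1k. After this step the pathway splits: leucine ends in acetyl-CoA and acetoacetate, isoleucine in acetyl-CoA and propionyl-CoA, and valine in propionyl-CoA. Brown fat is known in mouse and human to take up and oxidise these amino acids during heat production.

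The comparison of KO with WT asked which steps of this pathway differ in transcript level when glycerol kinase is lost. With all 7 arrays no member passed the test (limma, Benjamini-Hochberg adjusted p under 0.05 over all 27022 tested probe sets): 0 of 14 probe sets, where 1.59% of all tested probe sets passed. At an unadjusted p under 0.05 there were 5 of 14, where 16.5% of all tested probe sets lay under that value. The largest differences were those of the 2 regulators of the BCKDH complex, and they ran in opposite directions: the phosphatase gene Ppm1k was 1.51-fold higher in KO and the kinase gene Bckdk 1.30-fold lower. On the 6 arrays both passed, Ppm1k higher and Bckdk lower, 2 of 14 probe sets where 7.35% of all probe sets passed. The 4 member genes of the branches after the complex (Ivd, Acadsb, Hibadh and Aldh6a1) differed by at most 0.14 on the log2 scale with their brightest probe set.

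**Figure D1:**
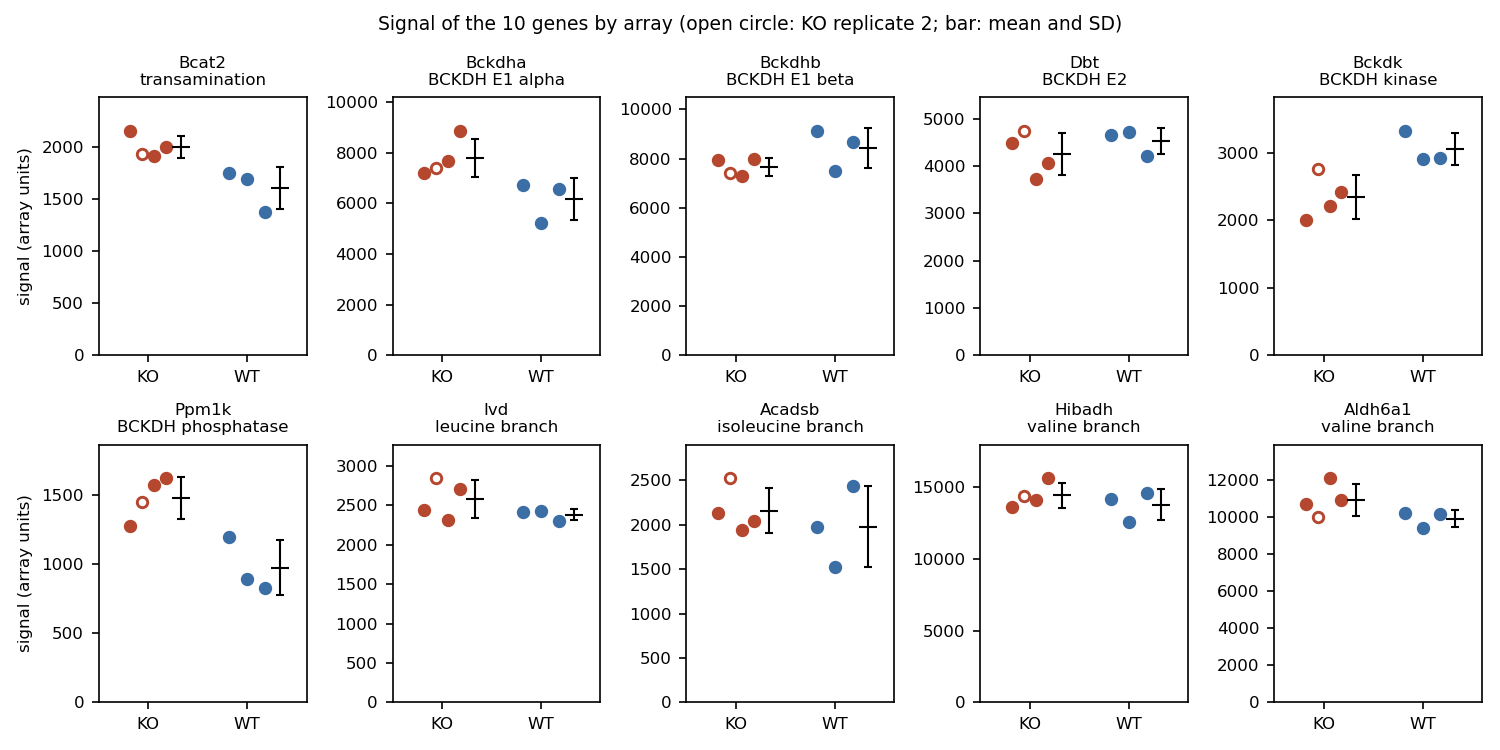
Signal (array units, linear axis from 0) of the brightest probe set of each of the 10 genes, by array, for KO (red, n = 4) and WT (blue, n = 3); the open circle is the array labelled KO replicate 2, and the cross and bar are the mean and SD. The groups do not overlap for Bcat2, Bckdha, Bckdk and Ppm1k and overlap for the other 6 genes.

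The KO and WT arrays did not overlap for 4 of the 14 probe sets, 3 higher in KO (Bcat2, Bckdha and Ppm1k) and 1 lower (Bckdk). Among all tested probe sets 14.7% did not overlap, 7.48% higher and 7.25% lower. The median log2 difference over the 10 genes, each counted by its brightest probe set, was 0.12, beside a median of 0.00050 over all tested probe sets, and 7 of the 10 differences lay above 0. On the 6 arrays the median over the 10 genes was 0.07, beside 0.0050 over all tested probe sets. The replicates of most members lay close together. The SD was under 15% of the mean in KO for 11 of the 14 probe sets and in WT for 10 of the 14, and it ranged from 3% to 28.7% over both groups.

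Bcat2 encodes the mitochondrial aminotransferase of the first step. Its probe set read 2158, 1940, 1920 and 2008 in KO replicates 1 to 4, against 1753, 1697 and 1376 in WT replicates 1, 3 and 4. Every KO array was above every WT array, with means of 2006 ± 108 in KO (SD, n = 4) and 1609 ± 204 in WT (SD, n = 3). The difference of 0.32 ± 0.12 (SE) on the log2 scale, 1.25-fold, did not pass (limma, adjusted p = 0.201), nor did it on the 6 arrays (0.34, adjusted p = 0.139). On the array labelled KO replicate 2 Bcat2 lay 78.9% of the way from the WT mean to the mean of the other KO arrays.

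The BCKDH complex is built from a decarboxylase of alpha and beta subunits (Bckdha and Bckdhb), a transacylase core (Dbt) and a dihydrolipoamide dehydrogenase (Dld) that it shares with other keto acid dehydrogenases. The estimated differences of its subunit genes did not share a sign, and none passed. Bckdha read 7196, 7393, 7670 and 8856 in KO replicates 1 to 4, against 6712, 5223 and 6560 in WT replicates 1, 3 and 4. The groups did not overlap, with means of 7779 ± 744 in KO (SD, n = 4) and 6165 ± 819 in WT (SD, n = 3). The log2 difference of 0.34 ± 0.12 (SE) did not pass (limma, adjusted p = 0.189, and 0.122 on the 6 arrays).

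Bckdhb, the partner of Bckdha in the decarboxylase, read 7964, 7415, 7277 and 7973 in KO replicates 1 to 4, against 9124, 7510 and 8661 in WT replicates 1, 3 and 4. The groups overlapped, and the log2 difference was -0.13 (95% confidence interval -0.36 to 0.09, limma adjusted p = 0.569). Dbt, the transacylase gene, read 4489, 4741, 3736 and 4073 in KO, against 4656, 4715 and 4216 in WT, in the same order of replicates. Its groups overlapped as well, with a log2 difference of -0.09 (-0.34 to 0.15, limma adjusted p = 0.752), and of -0.15 on the 6 arrays (adjusted p = 0.485).

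Within each array the signal of Bckdha was also set against that of Bckdhb, a comparison chosen after their values were seen and therefore given with no test. Since the 2 probe sets need not respond alike, only the change of this log2 ratio between groups can be read and not its level. It was -0.15, -0.00 (-0.0042), 0.08 and 0.15 in KO replicates 1 to 4, against -0.44, -0.52 and -0.40 in WT replicates 1, 3 and 4. The KO arrays all lay above the WT arrays, by 0.47 on average, by 0.37 in the first run of deposited arrays (KO replicates 1 and 2, WT replicate 1) and by 0.57 in the second (KO and WT replicates 3 and 4).

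Bckdk encodes the kinase that inactivates the complex. Its brighter probe set, 1460644_at, read 1998, 2762, 2206 and 2418 in KO replicates 1 to 4, against 3324, 2909 and 2924 in WT replicates 1, 3 and 4. Every KO array was below every WT array, and the array labelled KO replicate 2 was the KO array nearest to WT, 34.3% of the way from the WT mean to the mean of the other KO arrays. The means were 2346 ± 326 in KO (SD, n = 4) and 3052 ± 235 in WT (SD, n = 3). The log2 difference of -0.38 ± 0.13 (SE) did not pass with all arrays (limma, adjusted p = 0.156). On the 6 arrays Bckdk fell 1.38-fold, with a log2 difference of -0.46 ± 0.11 (SE, limma adjusted p = 0.0357) and a KO mean of 2207 ± 210 (SD, n = 3).

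The other probe set of Bckdk, 1443813_x_at, whose name ending marks probes that may also bind other transcripts, gave signals of 411, 429, 569 and 537 in KO replicates 1 to 4 and 443, 774 and 770 in WT replicates 1, 3 and 4. The groups overlapped because WT replicate 1 read low, as did KO replicates 1 and 2 of the same deposited run. The log2 difference was -0.39 ± 0.21 (SE) and did not pass (limma, adjusted p = 0.38, and 0.419 on the 6 arrays). By deposited run it was -0.07 in the first, which holds 1 WT array, and -0.46 in the second.

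Ppm1k encodes the mitochondrial phosphatase that reactivates the complex. Its brighter probe set, 1452973_at, read 1276, 1447, 1570 and 1622 in KO replicates 1 to 4, against 1200, 895 and 830 in WT replicates 1, 3 and 4. The groups did not overlap, though KO replicate 1 and WT replicate 1 lay close together. Means were 1479 ± 154 in KO (SD, n = 4) and 975 ± 197 in WT (SD, n = 3). The log2 difference of 0.60 ± 0.15 (SE) was the largest of the 14 probe sets and did not pass with all arrays (limma, adjusted p = 0.0732).

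On the 6 arrays Ppm1k rose 1.52-fold (log2 difference 0.61 ± 0.16, SE, limma adjusted p = 0.0476). With the deposited run as a covariate the difference was 0.59 and did not pass (adjusted p = 0.0734), and with that covariate and without KO replicate 2 together it was 0.61 and did not pass either (adjusted p = 0.0503). The difference was unequal between the runs, at 0.18 in the first, which holds 1 WT array, and 0.87 in the second (limma within the second run, adjusted p = 0.0215).

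The other Ppm1k probe set, 1441988_at, read 390, 316, 570 and 533 in KO replicates 1 to 4, against 238, 358 and 304 in WT replicates 1, 3 and 4. The array labelled KO replicate 2 lay inside the WT range, and the other KO arrays lay above it. The log2 difference was 0.53 ± 0.21 (SE, limma adjusted p = 0.249), and 0.68 on the 6 arrays (adjusted p = 0.0664). This probe set passed on the 6 arrays with the deposited run as a covariate (0.68, adjusted p = 0.0222). On the array labelled KO replicate 2 it lay 8.24% of the way from the WT mean to the mean of the other KO arrays, and the brighter probe set 91.8% of the way. Both probe sets of Ppm1k thus read higher and both of Bckdk lower in KO.

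**Figure D2:**
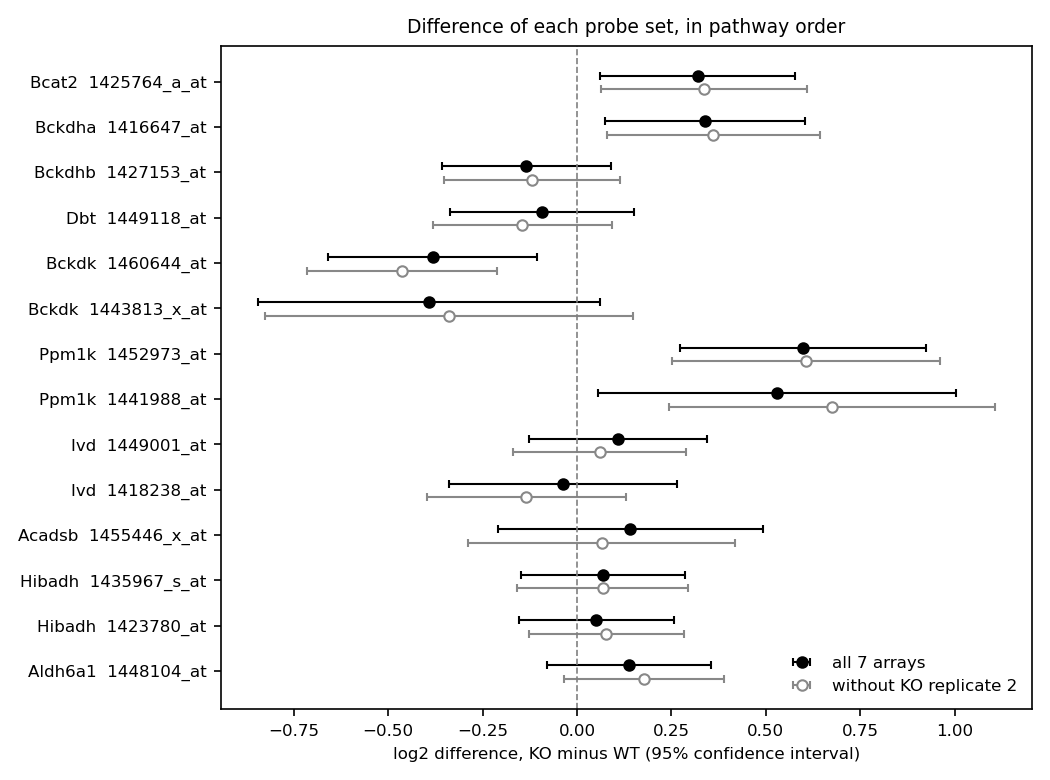
Log2 difference, KO minus WT, of each of the 14 probe sets in pathway order from top to bottom, with its 95% confidence interval from limma, for all 7 arrays (filled, black) and for the 6 arrays without KO replicate 2 (open, grey). The intervals with all arrays lie on 1 side of 0 for Bcat2, Bckdha, both Ppm1k probe sets and the brighter Bckdk probe set; they are not adjusted for the number of probe sets tested.

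The kinase and phosphatase signals were also compared within each array, since they act on the same subunit. The log2 ratio of Bckdk to Ppm1k was 0.64, 0.92, 0.48 and 0.57 in KO replicates 1 to 4, against 1.45, 1.67 and 1.78 in WT replicates 1, 3 and 4. The highest KO array, replicate 2, lay well below the lowest WT array. The mean ratio was 0.65 ± 0.19 in KO (SD, n = 4) and 1.63 ± 0.17 in WT (SD, n = 3), a difference of -0.98, by which the ratio in KO was 0.507 of that in WT. An exact permutation test over the 7 arrays gave p = 0.0571 (two-sided), which is the smallest p that 4 against 3 arrays allow, so the design cannot reach 0.05. Each of the 2 genes alone already separated the groups, in opposite directions. The ratio therefore had to separate them too, and the test adds no support. The difference was -1.07 on the 6 arrays, -0.67 in the first deposited run and -1.20 in the second. Such a ratio can show only that 2 transcripts differ unequally between groups, and does not give the activity of the complex.

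**Figure D3:**
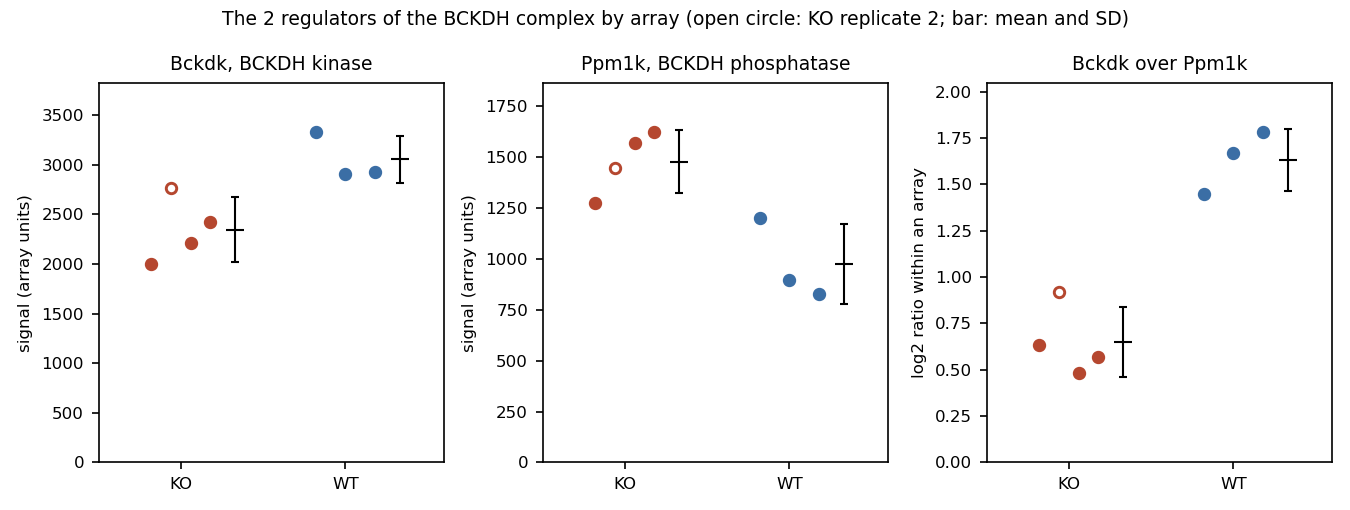
Signal (array units) of Bckdk and Ppm1k and the log2 ratio of Bckdk to Ppm1k within an array, for KO (red, n = 4) and WT (blue, n = 3); the open circle is the array labelled KO replicate 2, and the cross and bar are the mean and SD. In the ratio the KO arrays lie between 0.48 and 0.92 and the WT arrays between 1.45 and 1.78.

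The upstream sequences of both regulator genes are shown because these were the members that passed, in opposite directions, on the 6 arrays. Each is the 250 bases before the annotated start, 5′ to 3′ on the strand of the gene, from RefSeq (GRCm38.p6): Bckdk at chr7:127903823-127904072 on the plus strand and Ppm1k at chr6:57535488-57535737 on the minus strand. Capitals mark the matches to the motifs searched.
Bckdk: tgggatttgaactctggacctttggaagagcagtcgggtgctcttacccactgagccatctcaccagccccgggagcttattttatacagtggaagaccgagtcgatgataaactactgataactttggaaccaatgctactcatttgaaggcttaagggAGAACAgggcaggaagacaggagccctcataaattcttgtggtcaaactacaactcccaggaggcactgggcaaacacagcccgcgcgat
Ppm1k: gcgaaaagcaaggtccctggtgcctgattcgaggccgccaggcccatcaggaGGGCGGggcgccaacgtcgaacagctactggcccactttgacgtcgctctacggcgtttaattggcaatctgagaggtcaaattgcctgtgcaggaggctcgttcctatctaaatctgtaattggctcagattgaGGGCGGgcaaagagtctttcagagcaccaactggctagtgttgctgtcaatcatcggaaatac

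The motifs were searched on both strands in this window, and matches of different motifs did not overlap in these 2 sequences. In Bckdk the capitals are AGAACA, the core of glucocorticoid receptor sites, 90 bases before the start, which was present in 16.1% of all 32851 RefSeq windows of this length. In Ppm1k they are 2 copies of GGGCGG, a box bound by SP and Krüppel-like factors, 198 and 63 bases before the start, present in 32.7% of all windows. Windows were found for 9 of the 10 genes (12 windows), and 2 of the 12 held AGAACA (Bckdhb and Bckdk) and 4 held GGGCGG (Acadsb, Bckdhb, Hibadh and Ppm1k). AAGGTCA (estrogen-related receptors, 4.08% of all windows), TGACGTCA (cyclic AMP response element, 1.55%) and the PPAR response element (direct repeat with a 1-base spacer, 0.0335%) had 0 matches in the 12 windows. A match describes the letters and does not show that a factor binds there.

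After the BCKDH complex each amino acid has its own acyl-CoA dehydrogenase and later enzymes. Ivd, isovaleryl-CoA dehydrogenase of the leucine branch, read 2442, 2842, 2317 and 2702 in KO replicates 1 to 4 with its brighter probe set, against 2414, 2430 and 2299 in WT replicates 1, 3 and 4. The groups overlapped, and the log2 difference was 0.11 (95% confidence interval -0.13 to 0.34, limma adjusted p = 0.689). The other Ivd probe set differed by -0.04 (-0.34 to 0.26). Both differences were lower on the 6 arrays, at 0.06 and -0.13 (adjusted p = 0.796 and 0.574). On both probe sets the highest of the 7 values was that of the array labelled KO replicate 2.

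Acadsb, the short/branched-chain acyl-CoA dehydrogenase of the isoleucine branch, had 1 probe set, 1455446_x_at, of the kind that may bind other transcripts. It read 2137, 2525, 1939 and 2039 in KO replicates 1 to 4, against 1982, 1521 and 2442 in WT replicates 1, 3 and 4. The WT arrays spanned nearly the whole range, so the interval of the difference was wide (0.14, 95% confidence interval -0.21 to 0.49, limma adjusted p = 0.731), and the difference was -0.033 without WT replicate 3 and 0.07 on the 6 arrays.

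In the valine branch Hibadh, which oxidises 3-hydroxyisobutyrate, read 13565, 14391, 14074 and 15592 in KO replicates 1 to 4 with its brighter probe set, against 14177, 12517 and 14561 in WT replicates 1, 3 and 4. The groups overlapped (log2 difference 0.07, 95% confidence interval -0.15 to 0.29, limma adjusted p = 0.8), and the other probe set differed by 0.05 (-0.15 to 0.26). Aldh6a1, the methylmalonate semialdehyde dehydrogenase that releases propionyl-CoA, read 10710, 10043, 12119 and 10943 in KO, against 10221, 9415 and 10193 in WT. The array labelled KO replicate 2 was the only KO array inside the WT range. The log2 difference of Aldh6a1 was 0.14 (-0.08 to 0.35, limma adjusted p = 0.548), and 0.18 on the 6 arrays (adjusted p = 0.32). For Ivd, Hibadh and Aldh6a1 all of these intervals stay within a log2 difference of 0.5 in either direction.

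A wider list of 37 genes that carry, finish or regulate the pathway was examined with the same fit, each gene by its brightest tested probe set. Of the 35 that could be tested, 1 rose and 0 fell, where 0.951% of all tested probe sets were called higher and 0.644% lower. On the 6 arrays, 4 rose and 1 fell, where 3.14% of all tested probe sets were called higher and 4.21% lower. These 35 genes had a median log2 difference of 0.03 on all 7 arrays and 0.11 on the 6 arrays, beside 0.00050 and 0.0050 over all tested probe sets.

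Klf15, a Krüppel-like factor that in mouse muscle is known to drive transcription of branched-chain amino acid enzymes, was the gene that rose. It read 1824, 490, 1330 and 1651 in KO replicates 1 to 4, against 254, 235 and 138 in WT replicates 1, 3 and 4. The groups did not overlap, and the array labelled KO replicate 2 lay only 20.2% of the way from the WT mean to the mean of the other KO arrays. The log2 difference was 2.38 ± 0.38 (SE, limma adjusted p = 0.0228), and 2.79 on the 6 arrays (adjusted p = 0.000192). Klf15 did not pass when any single array other than KO replicate 2 was left out. Nor did it pass with no filter on dim signal or with variances that do not follow the mean signal. Among the other regulators 0 of 4 passed (Mlxipl, Ppara, Ppargc1a and Esrra).

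Of the 6 transport genes 0 passed with all arrays and 2 rose on the 6 arrays, where 3.14% of all tested probe sets were called higher. Slc43a1, a carrier of large neutral amino acids in the plasma membrane, read 496, 248, 327 and 358 in KO replicates 1 to 4, against 167, 264 and 168 in WT replicates 1, 3 and 4, with a log2 difference of 0.74 (limma, adjusted p = 0.143) and of 0.88 on the 6 arrays (adjusted p = 0.0388). Slc7a8, the exchanger LAT2 of the same amino acids, averaged 401 ± 97.3 in KO and 260 ± 62 in WT (SD, n = 4 and 3), with a log2 difference of 0.56 (limma, adjusted p = 0.238) and of 0.73 on the 6 arrays (adjusted p = 0.0454). On the array labelled KO replicate 2 both genes lay inside the WT range.

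Slc25a44, the mitochondrial carrier of branched-chain amino acids in brown fat, was not named by the rule and is given because of its values. Its brightest probe set read 2296, 1815, 1831 and 2104 in KO replicates 1 to 4, against 1744, 1541 and 1401 in WT replicates 1, 3 and 4. The groups did not overlap (log2 difference 0.36 ± 0.13, SE, limma adjusted p = 0.184, and 0.0892 on the 6 arrays). A dimmer probe set differed by 0.42 (adjusted p = 0.176) and passed on the 6 arrays (0.51, adjusted p = 0.048), and the dimmest differed by -0.10.

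In the branches after the complex Hsd17b10, the hydroxyacyl-CoA dehydrogenase of isoleucine breakdown, had the largest difference. It read 11890, 7499, 14246 and 14008 in KO replicates 1 to 4, against 8549, 5984 and 5848 in WT replicates 1, 3 and 4. KO replicates 1, 3 and 4 were above every WT array and the array labelled KO replicate 2 was inside the WT range. The log2 difference of 0.79 ± 0.22 (SE) did not pass with all arrays (limma, adjusted p = 0.102) and passed on the 6 arrays, where the gene rose 1.99-fold (adjusted p = 0.00501). The other 5 isoleucine-branch genes, which also serve fatty acid oxidation or ketone metabolism, differed by -0.11 to 0.08.

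In the leucine branch 0 of 3 tested genes passed on 7 or on 6 arrays. Mccc2, a subunit of methylcrotonyl-CoA carboxylase, averaged 3108 ± 394 in KO and 3547 ± 287 in WT (SD, n = 4 and 3), a log2 difference of -0.19 (limma, adjusted p = 0.478), and its other probe sets differed by -0.26 and -0.45. The partner subunit gene Mccc1 differed by 0.03 (adjusted p = 0.917). In the valine branch 0 of 2 tested genes passed. Hibch, the hydrolase before Hibadh, differed by 0.15 (adjusted p = 0.552) and Acad8, the isobutyryl-CoA dehydrogenase, by 0.03 with its brighter probe set (adjusted p = 0.943). The dimmer Acad8 probe set disagreed, with 637 ± 76.3 in KO and 900 ± 77.1 in WT (SD, n = 4 and 3; log2 difference -0.48, limma adjusted p = 0.103).

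Of 8 genes that handle propionyl-CoA, the product of isoleucine and valine, 0 passed with all arrays, while 3 had groups that did not overlap (1 higher and 2 lower in KO), where 7.48% of all tested probe sets did not overlap and were higher and 7.25% lower. Mmab, the adenosyltransferase that makes the cobalamin cofactor, averaged 441 ± 80.9 in KO and 620 ± 39 in WT (SD, n = 4 and 3; log2 difference -0.48, limma adjusted p = 0.157), and fell on the 6 arrays (-0.57, adjusted p = 0.0421). The other 2, which the rule does not name, are given because of their values. Mcee, the epimerase, read between 4789 and 5777 in KO and between 6548 and 8418 in WT (log2 difference -0.44, adjusted p = 0.0966), and Mmut, the mutase that acts directly after it, read between 6029 and 7731 in KO and between 4568 and 5984 in WT (0.38, adjusted p = 0.15). Neighbouring steps thus differed in opposite directions, and neither passed.

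Dld, the shared dehydrogenase of the BCKDH complex, averaged 10241 ± 438 in KO and 10568 ± 261 in WT (SD, n = 4 and 3; log2 difference -0.05, limma adjusted p = 0.857). Etfa and Etfdh, which carry electrons onward from the acyl-CoA dehydrogenases, differed by 0.06 and 0.04 (adjusted p = 0.876 and 0.918). Bcat1, the cytosolic aminotransferase, was dim, at 181 ± 31.3 in KO and 150 ± 16.5 in WT (log2 difference 0.22, adjusted p = 0.632). A second tested Bcat1 probe set differed the other way, with 124 ± 61.3 in KO and 167 ± 42 in WT (log2 difference -0.45, adjusted p = 0.593, and -0.64 on the 6 arrays with adjusted p = 0.333), and the third did not pass the filter.

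**Figure D4:**
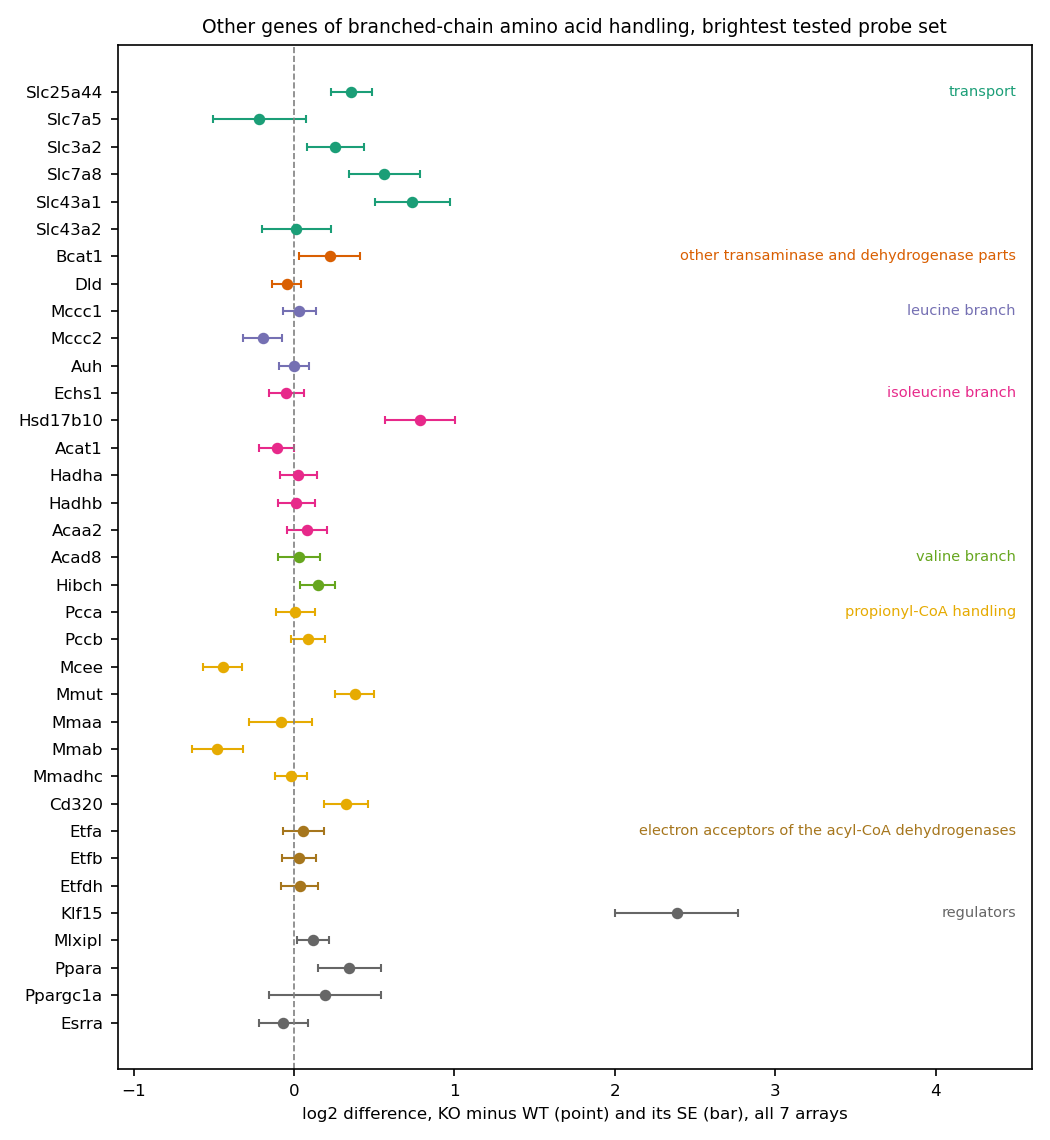
Log2 difference, KO minus WT, with its SE from limma over all 7 arrays, for the 35 tested genes that carry, finish or regulate the pathway, coloured by list and named at the first gene of each list. Klf15 lies at 2.38, and the other 34 genes lie between -0.48 and 0.79.

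Markers of other cell types were summed per array. Skeletal muscle, which lies beside brown fat, uses these enzymes too: its 12 markers summed to 25452 to 47781 signal units in KO and 29765 to 51962 in WT, and 0 of 11 tested passed. They were high in the first deposited run (47781 and 44446 in KO, 51962 in WT) and lower in the second (29359 and 25452 in KO, 29765 and 31486 in WT). Within each run every KO array lay below every WT array. With the run as a covariate 0 of 11 passed. When KO replicate 2 was also left out 1 of 11 fell, where 1325 of all 27022 tested probe sets were called lower. All defining muscle genes but Myh4 passed the filter. The 6 neutrophil markers summed to 5623 to 10344 in KO and 4288 to 6660 in WT (0 of 6 passed, 2 rose on the 6 arrays and 5 rose in the second run alone, where 1.3% of all tested probe sets were called higher), and the 6 fibroblast and matrix markers to 35773 to 58276 in KO and 56008 to 62880 in WT (0 of 6 passed, and 1 fell on the 6 arrays). With all arrays the 6 neutrophil differences all lay above 0 (median 0.60) and the 6 fibroblast and matrix differences all below 0 (median -0.31). With the run as a covariate 2 neutrophil markers rose, where 338 of all 27022 tested probe sets were called higher. The 6 leukocyte markers summed to 7054 to 11267 in KO and 7705 to 8323 in WT (0 of 6 passed, and 1 rose on the 6 arrays). Endothelial markers summed to 6209 to 6564 in KO and 6518 to 8127 in WT, erythroid markers to 3670 to 5165 in KO and 3518 to 5630 in WT and liver markers to 848 to 9642 in KO and 1333 to 17832 in WT, with 0 passed in each list. The 9 brown adipocyte markers summed to 97512 to 123614 in KO and 102692 to 117144 in WT (0 of 9 passed, on 7 or 6 arrays). The 5 general adipocyte markers with a probe set summed to 91661 to 121228 in KO and 92189 to 105728 in WT. With all arrays their 5 log2 differences lay above 0 (median 0.07), and 0 of 5 passed on 7 or 6 arrays. Of all tested probe sets 3.14% were called higher and 4.21% lower on the 6 arrays. The part of other cells in the differences of Bckdk, Ppm1k and the other genes was not tested.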

How the data were processed

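Total RNA of brown fat from 4 KO and 3 WT samples was isolated with Trizol and hybridised as biotinylated target, per the labels. The deposited values are signal intensities on a linear scale, 1 per probe set and array. The submitters' processing notes name GCOS 1.2, and nothing used here states how arrays were scaled. The trimmed mean was the same on all arrays, so this scaling was kept. No detection calls came with the table used here. The number of arrays limits the precision.

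Control probe sets (64) were left out, and 34945 of the remaining 45037 had 1 gene symbol. Names come from GEO's platform annotation with RefSeq symbols. The 20th percentile of all values, 30.6, was added before log2 was taken, so folds of dim probe sets are understated. Probe sets under the 40th percentile of mean log2 value over all arrays were left out. KO was compared with WT by limma 3.58.1 (R 4.3.3), with moderated variances that follow the mean signal, two-sided p-values and Benjamini-Hochberg adjustment over 27022 probe sets. The fit was tested on simulated data. The Bckdk to Ppm1k ratio was compared by an exact permutation test (SciPy 1.17.1). Genes were named by a rule: all 10 members, and of 8 pathway lists each gene that passed with all arrays or without KO replicate 2, otherwise the 2 with the smallest p. Members, lists and rules were chosen with earlier results of these data known. The deposited runs are 2 runs of sample accession numbers, and what they stand for is not stated. Alternatives were other normalizations, offsets, filters and variance models, array weights, blocks, each array left out and another threshold.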

Additional observations from a re-analysis of the deposited data

How the results depend on the processing

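Over 22 alternatives, the number of all probe sets that differed (431) depended strongly on the variance model, the filter and the arrays. It was 236 with scaling by the array median, 100 with no filter, 6 with no mean-variance trend and 1312 with array weights. It was 726 in the second deposited run alone and 1085 at a threshold of 0.1. With the run as a covariate and without the array labelled KO replicate 2 it was 2330. Without that array alone it was 1986, and when any other single array was left out it was 7 to 40. The fit on the first run alone, and that with the covariate and without that array, were chosen after seeing the data. The number of member probe sets that differed (0) was 1 with array weights, in the second run alone and at the threshold of 0.1. It was 2 without that array, with or without the covariate, and 0 when any other single array was left out. Counted by the brightest probe set, only Ppm1k differed with array weights, in the second run alone and at the threshold of 0.1. With the covariate and without that array only Bckdk differed. Without that array alone 2 member genes differed (Ppm1k and Bckdk), and 0 when any other single array was left out. Of the other pathway genes (1) there were 2 with quantile normalization, with array weights, in the second run alone and at the threshold of 0.1. There were 0 with no filter and with no trend, and 7 with the covariate and without that array. Without that array alone there were 5, and 0 when any other single array was left out. The cause was not tested.

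The replicate number did not clearly pair the arrays: deviations of same-numbered KO and WT arrays from their group means correlated at 0.137, 0.0899 and 0.109, although each of these KO arrays correlated best with the WT array of its own number. With the replicate block 2173 probe sets differed, 2 of them of members, 1 member gene by its brightest probe set (Bckdk, adjusted p = 0.0491) and 4 other pathway genes. This fit leaves out KO replicate 2, which has no WT partner.

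For the single members, 214 of 224 alternative values were counted as the same. Where a p-value was computed, this meant the same direction and the same side of the threshold. Means over all probe sets of a gene have no p-value, and the threshold of 0.1 repeats the main differences. For Ivd this mean (0.035, beside 0.11 with the brighter probe set) kept its direction but was counted as moved. Bckdk passed in 3 alternatives, all of them fits that leave out KO replicate 2 (limma, lowest adjusted p = 0.0357). Ppm1k passed in 4: with array weights, in the second run alone (adjusted p = 0.0215), without KO replicate 2 and at the threshold of 0.1. The last is the main fit at another threshold, and the second run does not hold KO replicate 2. Outside the first run alone, adjusted p reached 0.375 for Bckdk (without WT replicate 1) and 0.262 for Ppm1k (without WT replicate 4). Acadsb turned to -0.033 without WT replicate 3 (up to 0.30 with another array left out) and Hibadh to -0.021 in the first run alone, and neither passed in any fit. The Bckdk to Ppm1k difference lay between -1.20 and -0.67 in all alternatives and between -1.07 and -0.91 when 1 array was left out. All 14 member probe sets passed the filter on dim signal.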
